A study of Mus musculus with 6 samples.

Results

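FXR ChIP-seq peaks were examined at the genes of the FGF15/FGF21 hormone axis: the ligands Fgf21 and Fgf1, the co-receptor Klb, and the receptors Fgfr1, Fgfr2, Fgfr3 and Fgfr4. A peak was counted when either deposited peak table named 1 of these 7 genes as its gene. The rule used gene assignment and no measured level. It gave 39 peaks of 32535 in all, 21 of 20040 in the WT table and 18 of 12495 in the LKO table.

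FGF15 is released by the ileum when the nuclear receptor FXR senses bile acids, and it reaches the liver through the portal blood. There it binds FGFR4 together with β-klotho, the protein encoded by Klb, and lowers bile acid synthesis. FGF21 is made mainly by the liver itself, and it acts through β-klotho and FGFR1 in other tissues. FGF1 binds FGF receptors without needing β-klotho. FXR is also abundant in hepatocytes, so the axis can meet FXR at both ends, as the hormone's inducer in the gut and as a DNA-binding factor at the receptor genes in liver.

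The libraries came from livers of male C57BL/6 mice of 2 genotypes, and both carried floxed Bcl6 alleles. Bcl6 fl/fl mice without Cre were the control, written WT. Alb-cre, Bcl6 fl/fl mice, written LKO, lost the repressor BCL6 in cells in which the albumin promoter drove Cre. The study describes them as a hepatocyte Bcl6 knockout. Each genotype had 2 ChIP libraries and 1 input library, the input being sheared chromatin without immunoprecipitation. Age was not given for these samples and no agent was named, and the study's methods say only that animals were fed freely or fasted for some hours. Chromatin came from whole liver, so cells outside the hepatocyte lineage that still have BCL6 contributed to every library.

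WT replicate 2 held 2883717 tags, 6.60 times fewer than the 19022618 of WT replicate 1, and the LKO ChIP libraries held 21287263 and 22637613. Per-library values were deposited on a log2 scale that was set separately in each table, and peaks were called on pooled replicates. Levels are therefore compared between genotypes only as descriptions, after subtracting from each library its median over the 9918 peak pairs that overlapped between tables (WT 5.01 and 5.53, LKO 5.04 and 4.85). The choice of scale matters, since without centring the median difference over all shared peaks shifted by -0.33, and with centring on all peaks of each table it shifted by -0.48. No test was run across tables, and with 2 against 2 an exact two-sided permutation test cannot go below p = 0.333. Both tables listed peaks at the hepatic FXR targets Nr0b2 (3 and 3), Abcb11 (1 and 1) and Slc51b (1 and 1), while loss of Bcl6 itself could not be checked from peak tables.

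The sequences below are the WT peaks that the motif results turn on, from the RefSeq copy of GRCm38.p6, which shares its coordinates with the mm10 build of the peak files, on the plus strand from 5′ to 3′. FXR with its partner RXR typically binds an inverted repeat of the half-site AGGTCA with a 1-base spacer, called IR1. Capitals mark the IR1 in the Fgf21 peak (chr7:45597718-45597928), a direct repeat of 2 half-sites with a 1-base spacer (DR1, here on the opposite strand) in the Fgfr2 peak (chr7:130223110-130223320), and a lone half-site in the Klb peak (chr5:65367964-65368174). In the Fgfr1 peak (chr8:25483805-25484015) they mark TTCNNNGAA, a STAT5-type motif that BCL6 can also bind. The Fgfr4 peak (chr13:55153020-55153230) held none of these and is shown because it was the single peak at the main hepatic receptor gene for FGF15.
Fgf21 peak: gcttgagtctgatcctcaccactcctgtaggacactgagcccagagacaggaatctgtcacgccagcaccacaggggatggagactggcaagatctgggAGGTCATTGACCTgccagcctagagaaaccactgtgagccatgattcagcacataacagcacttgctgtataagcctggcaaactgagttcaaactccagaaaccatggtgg
Fgfr2 peak: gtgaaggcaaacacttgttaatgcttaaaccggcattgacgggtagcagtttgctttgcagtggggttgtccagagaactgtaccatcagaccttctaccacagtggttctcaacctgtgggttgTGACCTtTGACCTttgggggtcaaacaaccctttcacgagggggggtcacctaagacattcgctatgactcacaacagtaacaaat
Klb peak: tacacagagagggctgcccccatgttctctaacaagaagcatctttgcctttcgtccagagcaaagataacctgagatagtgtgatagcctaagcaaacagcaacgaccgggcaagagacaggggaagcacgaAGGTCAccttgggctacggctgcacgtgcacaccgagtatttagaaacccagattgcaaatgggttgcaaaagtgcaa
Fgfr1 peak: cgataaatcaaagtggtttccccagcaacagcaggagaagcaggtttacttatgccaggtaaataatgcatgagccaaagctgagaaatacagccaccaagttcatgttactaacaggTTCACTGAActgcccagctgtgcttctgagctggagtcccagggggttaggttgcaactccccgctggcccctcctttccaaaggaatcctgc
Fgfr4 peak: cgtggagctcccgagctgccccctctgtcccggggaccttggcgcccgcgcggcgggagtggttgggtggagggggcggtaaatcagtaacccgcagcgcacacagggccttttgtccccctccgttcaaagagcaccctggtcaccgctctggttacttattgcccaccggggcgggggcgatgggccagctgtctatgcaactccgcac

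An exact IR1 lay in the Fgf21 peak 17.7 kb downstream of the transcription start site (TSS), at chr7:45597817-45597829, with its centre 0 bp from the centre of the WT peak. It reads AGGTCATTGACCT, and the LKO peak, which lay 43 bp to one side, contained it too. Only 46 of 20040 WT peaks (0.230%) and 36 of 12495 LKO peaks (0.288%) held an exact IR1. With up to 2 mismatches in its 12 scored bases, IR1 was in 1 of 21 member peaks in WT and 1 of 18 in LKO, both at Fgf21, while 11.9% of all WT peaks and 16.3% of all LKO peaks held one. In windows of the same length 2 kb away the shares were 0.958% and 0.872%. The strongest member peaks at Fgfr2 and Fgfr3 held no IR1 of these letters in the window called as the peak.

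The AGGTCA half-site, searched on both strands after the data were seen, was in 8 of 21 member peaks in WT and 8 of 18 in LKO, beside 41.0% and 41.6% of all peaks. Its carriers included the Klb peaks at 1.1, 2.3 and 19.7 kb from the TSS and the Fgfr2 peaks at 41.3, 43.6 and 44.1 kb. A DR1, the arrangement typical of PPARα with RXR and of HNF4α, was found exactly in 1 member peak of each table, the Fgfr2 peak at 43.6 kb. That peak is annotated as a URR1B element, a DNA transposon of the hAT-Charlie class, and its DR1 contributes to the half-site count. An exact DR1 was in 0.279% of all WT peaks and 0.152% of all LKO peaks.

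TTCNNNGAA was in 1 of 21 WT and 1 of 18 LKO member peaks, both at the Fgfr1 peak 34.8 kb upstream. It was in 6.9% of all WT and 6.46% of all LKO peaks, close to the 6.40% and 6.39% in windows 2 kb away. None of these letter matches shows which factor was bound.

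Of the 21 WT member peaks, 16 (76.2%) overlapped an LKO peak by 1 bp or more, and 16 of the 18 LKO member peaks (88.9%) overlapped a WT peak. Over the whole tables the shares were 49.5% of WT peaks and 79.4% of LKO peaks. The share rose with strength. Among WT peaks above the 90th percentile 95.3% of all peaks and 6 of 6 member peaks were shared, whereas below the 10th percentile 11.2% of all peaks and 0 of 1 member peak were. The median WT member peak lay at the 69.6th percentile of strength (mean log2 ChIP value) in its table, and the median LKO member peak at the 75.5th. Above the 75th percentile stood 10 of 21 WT and 9 of 18 LKO member peaks.

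**Figure D1:**
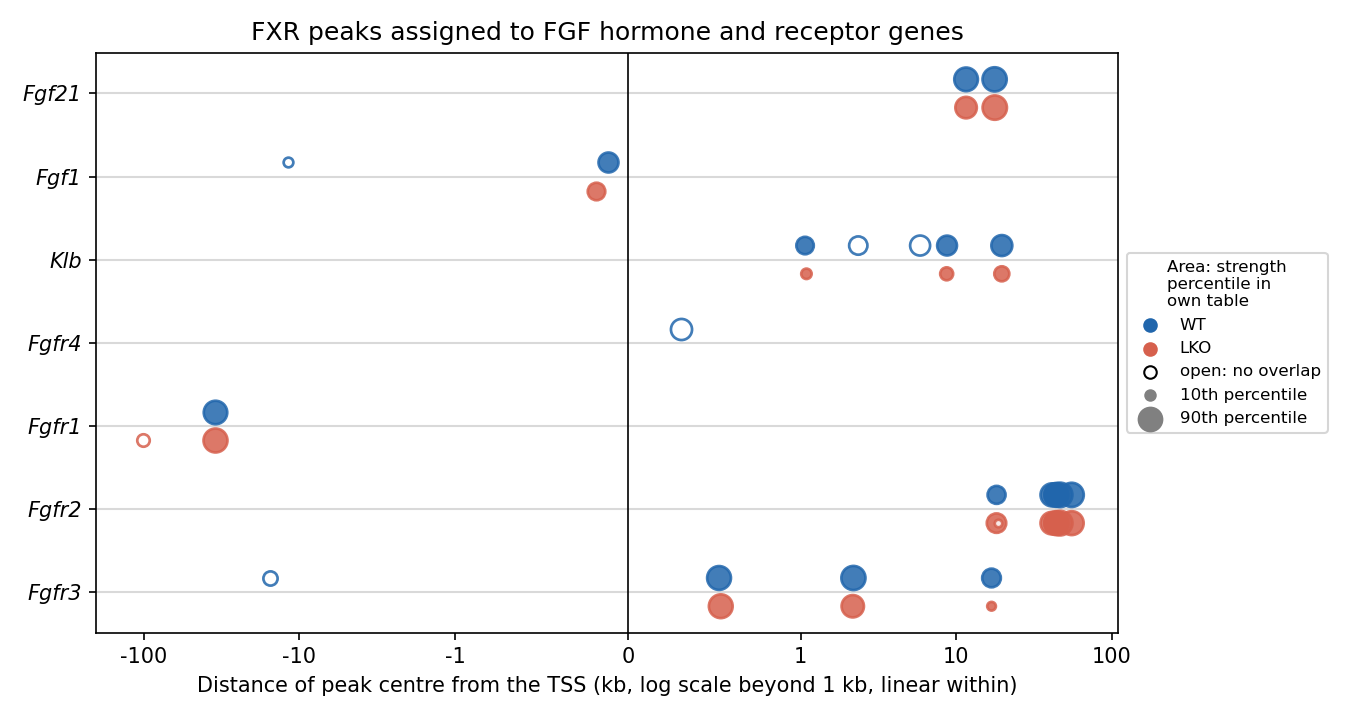
Position of the 39 FXR peaks relative to the TSS of the gene they were assigned to, in kb (log scale beyond 1 kb), with WT peaks above and LKO peaks below each gene's line. Area gives the strength percentile in the own table, and open circles are the 7 peaks without an overlapping peak in the other table, among them the Fgfr4 peak.

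Most of these peaks lay inside introns, with 15 of 21 in WT and 12 of 18 in LKO, beside 46.5% and 47.4% of all peaks. Promoter peaks were few, 1 in each table, both at Fgf1, beside 11.4% and 11.3% of all peaks. Repeats of the hAT-Charlie class held 3 WT member peaks and 2 LKO member peaks, beside 1.34% and 1.26% of all peaks. These were Klb peaks in MER20 and Charlie21a elements and the Fgfr2 peak in URR1B, and the MER20 peak was the one found in WT only.

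Fgf21, the gene of the liver hormone, had 2 peaks in each table, and both were shared. The peak at 17.7 kb, the IR1 peak printed above, lay in a B4 SINE within the long non-coding gene Gm31479. Its gene assignment followed the nearest TSS, and it stood 16.1 kb beyond the end of Fgf21 and 8.1 kb from the body of Bcat2, which encodes a branched-chain amino acid transaminase. The peak had deposited log2 values of 6.55 and 6.96 in the WT libraries and of 6.94 and 6.99 in the LKO libraries, at the 94.1st and 95.4th percentile of its table. Centred on the shared peaks, both LKO libraries (1.89 and 2.14) stood above both WT libraries (1.53 and 1.42), a difference of 0.54 with a pooled SD of 0.13. Input tags there were 1 in WT and 0 in LKO.

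The second Fgf21 peak, at 11.6 kb and 10.0 kb beyond the end of the gene, lay in an RMER10A long terminal repeat and went the other way. Its log2 values were 5.95 and 6.45 in WT and 5.60 and 5.06 in LKO. After centring, the WT libraries were at 0.94 and 0.92 and the LKO libraries at 0.56 and 0.21, so LKO was lower by a difference of -0.54 with a pooled SD of 0.18. Both Fgf21 peaks thus had separate libraries after centring on shared peaks, in opposite directions, and both signs held in every alternative tried. The positive difference was smallest, 0.06, with centring on all peaks of each table. The negative one ran from -1.02 with that centring to -0.36 without LKO replicate 2.

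Fgf1, the gene of a growth factor that can bind every FGF receptor, had a promoter peak in both tables. The log2 values were 4.82 and 4.95 in WT and 4.49 and 4.79 in LKO, and the centred values overlapped (-0.19 and -0.58 in WT, -0.55 and -0.06 in LKO, difference 0.08, pooled SD 0.31). Here the sign turned in several alternatives, for example to -0.39 with centring on all peaks. A second Fgf1 peak at -11.8 kb was listed in WT only, at the 7.42nd percentile of strength, where the log2 value of WT replicate 2 corresponds to an estimated 3.35 tags. The promoter region also overlaps Arhgap26 and the predicted gene Gm5820. Assignment by nearest TSS gave 5 further WT peaks inside the Fgf1 body, and 1 LKO peak, to Gm5820. The shared one among them lay in intron 1 at the 80.5th percentile in WT, with log2 values of 5.07 and 6.17 in WT and 5.59 and 4.81 in LKO, and is not counted among the 39.

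Klb, the β-klotho gene, carried all of its peaks in intron 1, with 5 in WT and 3 in LKO. At 5 or more peaks Klb was among 902 of 9026 genes with a WT peak (9.99%). All 3 LKO peaks overlapped a WT peak. The Klb peaks ranked between the 44.5th and 68.3rd percentile in WT and between the 9.86th and 30.7th percentile in LKO. Each rank is within its own table, so the ranks do not compare levels between genotypes. The Fgf1 promoter pair, with a centred difference of 0.08, stood at the 61.1st percentile in WT and the 45.0th in LKO.

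The Klb peak at 8.7 kb had log2 values of 4.77 and 4.95 in WT and of 4.31 and 3.93 in LKO. Centred values were -0.24 and -0.59 in WT against -0.73 and -0.92 in LKO, a difference of -0.41 with a pooled SD of 0.20 (-0.24 without WT replicate 1). The peak at 19.7 kb gave centred values of -0.004 and -0.31 in WT against -0.34 and -0.84 in LKO, a difference of -0.43 with a pooled SD of 0.30. WT replicate 2 had only an estimated 9.25 tags at the 8.7 kb peak and 11.2 at the 19.7 kb peak. In both, the LKO libraries lay below the WT libraries, though at 19.7 kb the nearest libraries were at -0.31 and -0.34 and the difference ran from -0.18 without LKO replicate 2 to -0.68 without LKO replicate 1. At 1.1 kb the libraries overlapped, and the difference of -0.23 was within the pooled SD of 0.33. All 3 shared Klb peaks thus had negative differences, 2 of them with separate libraries, and the sign held in every alternative except at 1.1 kb without LKO replicate 1 (0.07).

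The Klb peaks at 2.3 kb, in an RSINE1 repeat, and at 5.9 kb, in MER20, had no LKO counterpart, and the nearest LKO peaks were 1051 and 2617 bp away. Their log2 values in WT were 4.17 and 5.02 at 2.3 kb and 4.17 and 5.62 at 5.9 kb. At the latter, the libraries differed by more than at any other Klb peak (SD 1.03), and the higher value came from WT replicate 2, with an estimated 14.7 tags and with 2 tags in the input. The 2 peaks ranked at the 49.9th and 61.4th percentile in WT. A further peak upstream of Klb was assigned to Rfc1, a subunit of the DNA clamp loader, and was shared between tables. Its log2 values were 4.71 and 4.97 in WT and 4.85 and 4.42 in LKO.

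Fgfr4, the hepatocyte receptor for FGF15, had 1 WT peak and 0 LKO peaks. The WT peak lay 0.3 kb from the TSS in intron 1, inside a CpG island, and its sequence was 67.3% G and C. Its log2 ChIP values were 4.75 and 5.57 in WT, and its input value was 2.93, equal to 5 tags. The ChIP value exceeded input by 2.24, the smallest excess of the 21 WT member peaks and at the 0.155th percentile of all WT peaks. The authors' adjusted p-value of ChIP against input was 0.0451, the highest of the 21 and close to their limit of 0.05. In LKO the nearest peak was 37655 bp away. With the table listing only peaks that passed the authors' filter, an LKO signal below it was not visible, and a difference in FXR signal at Fgfr4 between genotypes could not be measured.

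**Figure D2:**
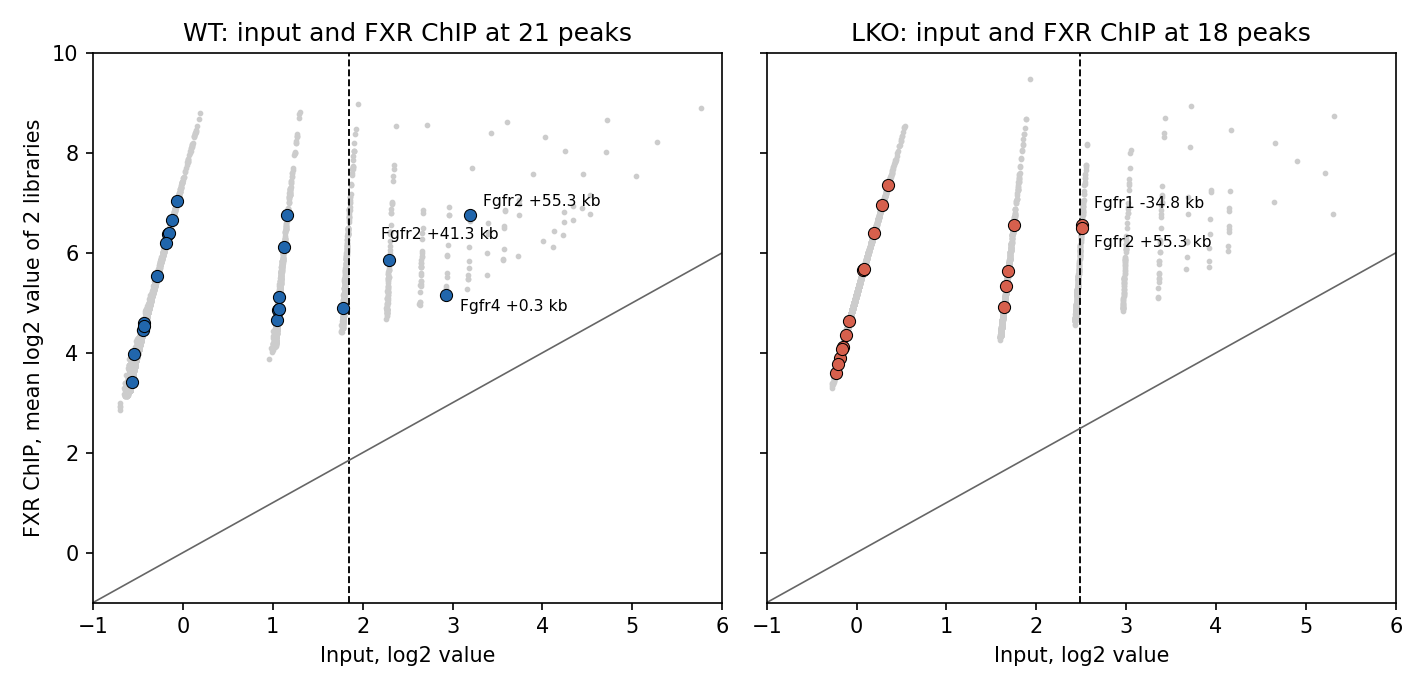
Mean log2 FXR ChIP value (2 libraries) against the log2 input value at member peaks (coloured) and at 4000 randomly drawn peaks of each table (grey), with the 95th percentile of input dashed and the line of equal values solid. Input values fall in bands of whole tags, and Fgfr4 in WT sits nearest to the line of equal values among member peaks.

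Input was low at most of these peaks. Input values stood in separate bands spaced by 1 tag, which put 11 of 21 WT member peaks and 12 of 18 LKO member peaks at 0 input tags, beside 70.2% and 72.0% of all peaks. The bands gave 6 WT and 4 LKO member peaks 1 tag. Above the 95th percentile of input in their table were 3 WT member peaks, at Fgfr4 and at the Fgfr2 positions of 55.3 and 41.3 kb, and 2 LKO member peaks, at Fgfr1 and at the Fgfr2 position of 55.3 kb. The Fgfr2 peak at 55.3 kb had the highest WT input, 6 tags, with 2 tags in LKO.

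Fgfr1, the receptor through which FGF21 acts with β-klotho, had no peak in its body in either table. Its shared peak lay 34.8 kb upstream in sequence annotated as intergenic, and is the TTCNNNGAA peak printed above. The log2 values were 6.32 and 5.92 in WT and 6.72 and 6.41 in LKO. Centred, the WT libraries were apart (1.31 and 0.39) and the LKO libraries close together (1.68 and 1.56), so LKO was higher by 0.77, with a pooled SD of 0.47. This was the highest of the 16 differences with all libraries on the shared-peak scale, though not without WT replicate 2, without either LKO replicate or by pooled peak score, and most of its spread lay between the WT replicates (SD 0.65). It was 1.23 without WT replicate 1 and 0.31 without WT replicate 2. It was also the only one of the 21 WT member peaks at which WT replicate 1 exceeded replicate 2 on the deposited scale, whereas replicate 2 was the higher at 84.7% of all WT peaks. The input held 1 tag in WT and 2 in LKO. A second, LKO-only peak at -101.6 kb was also annotated as intergenic, although RefSeq places the predicted gene Gm39147 there, and ranked at the 18.3rd percentile, with log2 values of 3.87 and 4.28.

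Fgfr2, a receptor with epithelial and mesenchymal splice forms, had the most peaks of the 7 genes, with 6 in WT and 7 in LKO. In WT 572 of 9026 genes (6.34%) had 6 or more peaks, and in LKO 118 of 6878 (1.72%) had 7 or more. All were in introns, and 5 of the 6 WT peaks stood between 41.3 and 55.3 kb from the TSS, in introns 3 and 4. The strongest was at 46.7 kb, with log2 values of 6.70 and 7.39 in WT and of 7.54 and 7.19 in LKO, the 95.9th and 97.4th percentile. It was the strongest member peak in both tables, and its input held 0 tags in both.

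All 6 shared Fgfr2 peaks had positive differences on the shared-peak scale, but 5 of 6 did without WT replicate 1, without LKO replicate 2 or with centring on the mean over shared peaks, 4 of 6 on the deposited scale and 3 of 6 with centring on all peaks. At 4 of them both LKO libraries stood above both WT libraries after centring on shared peaks. At 46.7 kb the centred values were 1.69 and 1.85 in WT against 2.50 and 2.34 in LKO, a difference of 0.65 with a pooled SD of 0.12. At 44.1 kb they were 0.98 and 1.24 against 1.45 and 1.76. The difference there was 0.50 with a pooled SD of 0.20, and it fell to 0.02 with centring on all peaks. At 18.2 kb the centred values were -0.81 and -0.66 against 0.16 and -0.20, a difference of 0.71 with a pooled SD of 0.19. WT replicate 2 had only an estimated 8.82 tags at that peak. The DR1 peak at 43.6 kb differed by 0.45 with a pooled SD of 0.30, and its nearest libraries were 0.40 in WT and 0.44 in LKO. That difference was 0.18 without LKO replicate 2 and 0.71 without LKO replicate 1, and it turned to -0.03 with centring on all peaks.

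The other two Fgfr2 pairs had overlapping libraries. At 55.3 kb the difference was 0.06 with a pooled SD of 0.21. Leaving out 1 replicate gave -0.11 (LKO replicate 2), -0.06 (WT replicate 1), 0.19 (WT replicate 2) and 0.24 (LKO replicate 1). On the deposited scale it was -0.27, and with centring on all peaks -0.41. At 41.3 kb the difference was 0.14 with a pooled SD of 0.14. Leaving out 1 replicate gave 0.014 (WT replicate 1) and 0.08 (LKO replicate 1) to 0.27 (WT replicate 2). This difference turned to -0.19 on the deposited scale and to -0.34 with centring on all peaks. The pair at 41.3 kb overlapped by only 22 bp with centres 186 bp apart. An LKO-only peak at 18.6 kb stood 243 bp from the nearest WT peak, which is the shared one at 18.2 kb, and with a percentile of 0.788 it was among the weakest peaks of the LKO table.

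Fgfr3, another receptor for FGF ligands, had 4 WT peaks and 3 LKO peaks, 3 of them shared. Neighbouring peaks in intron 1 had differences of opposite sign. At 0.5 kb the log2 values were 6.09 and 6.69 in WT and 6.75 and 6.04 in LKO, and the centred LKO values (1.71 and 1.20) were above the WT values (1.08 and 1.16), a difference of 0.34 with a pooled SD of 0.26. The separation was slight there, since the difference was 0.08 without LKO replicate 1, 0.59 without LKO replicate 2 and -0.14 with centring on all peaks.

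At 2.2 kb the log2 values were 6.37 and 6.94 in WT and 5.63 and 5.63 in LKO. Centred, WT was at 1.35 and 1.40 and LKO at 0.59 and 0.78, a difference of -0.69 with a pooled SD of 0.10. This was the most negative of the 16 differences with all libraries, though not without LKO replicate 1, and 7.98% of all shared peaks had one as low or lower. Within its own table the peak stood at the 93.5th percentile in WT and the 79.0th in LKO, ranks that do not compare levels. Input tags there were 0 in WT and 1 in LKO.

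The third shared Fgfr3 peak, at 16.9 kb, lay at the 3′ end of Letm1, a mitochondrial ion transport gene, 3.6 kb beyond the end of Fgfr3. Its centred values were -0.77 and -0.47 in WT and -1.34 and -1.01 in LKO, a difference of -0.55 with a pooled SD of 0.22. A WT-only peak stood 15.5 kb upstream, at the 26.6th percentile, where the libraries differed widely (log2 3.12 and 4.82).

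**Figure D3:**
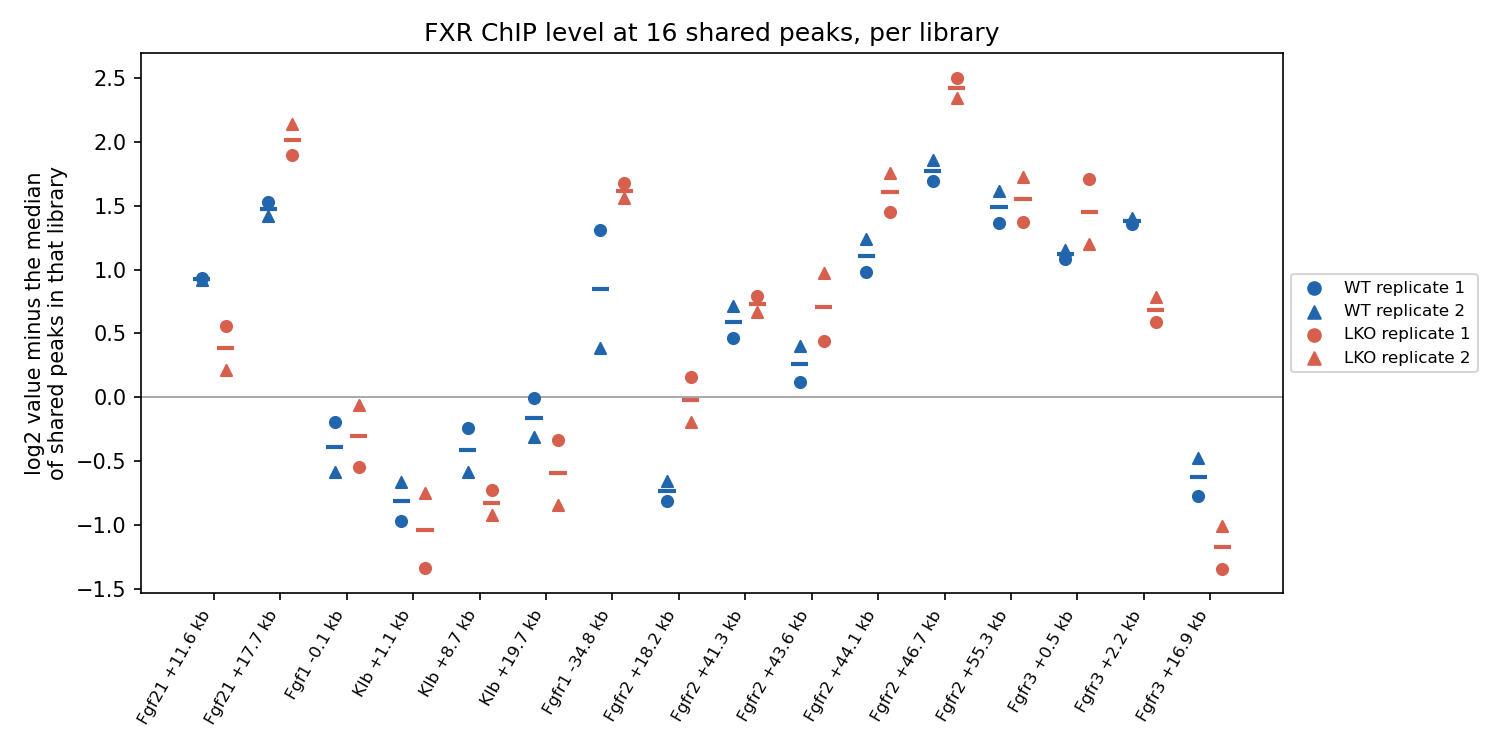
Log2 FXR ChIP value at the 16 shared peaks minus the library's median over all shared peaks, for WT (blue) and LKO (red), with circles for replicate 1, triangles for replicate 2 and bars for means of 2 libraries. The 2 Fgf21 peaks and the first 2 Fgfr3 peaks go in opposite directions (the first Fgfr3 peak turned negative with centring on all peaks), the 3 Klb peaks lie lower in LKO on average, and the 6 Fgfr2 peaks lie higher, 3 of which turned negative when libraries were centred on all peaks.

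Counted together, after centring on shared peaks, both LKO libraries were above both WT libraries at 7 of the 16 shared member peaks, and below at 5. Over all shared peaks these shares were 29.8% and 25.2%, so separation of the libraries was common in general. The separation depended on the scale. On the deposited scale the libraries overlapped at every pair called higher except Fgfr1. Those of all pairs called lower stayed apart there, and the Fgf1 promoter pair became lower in LKO. The median difference was 0.11 over the 16 pairs and 0.03 over all 9918, where the SD was 0.60. The member median turned to -0.22 on the deposited scale and to -0.36 with centring on all peaks, so its sign depends on the scale. The 16 differences ran from -0.69 to 0.77, inside the 5th to 95th percentile of all shared peaks (-0.82 to 1.11). Each of the 16 kept its sign after subtraction of the median difference of shared peaks of similar strength (10 bins). That step could change little, since the medians of the bins with member pairs ran only from -0.11 to 0.07. It was made on the shared-peak scale and says nothing on the choice of scale.

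**Figure D4:**
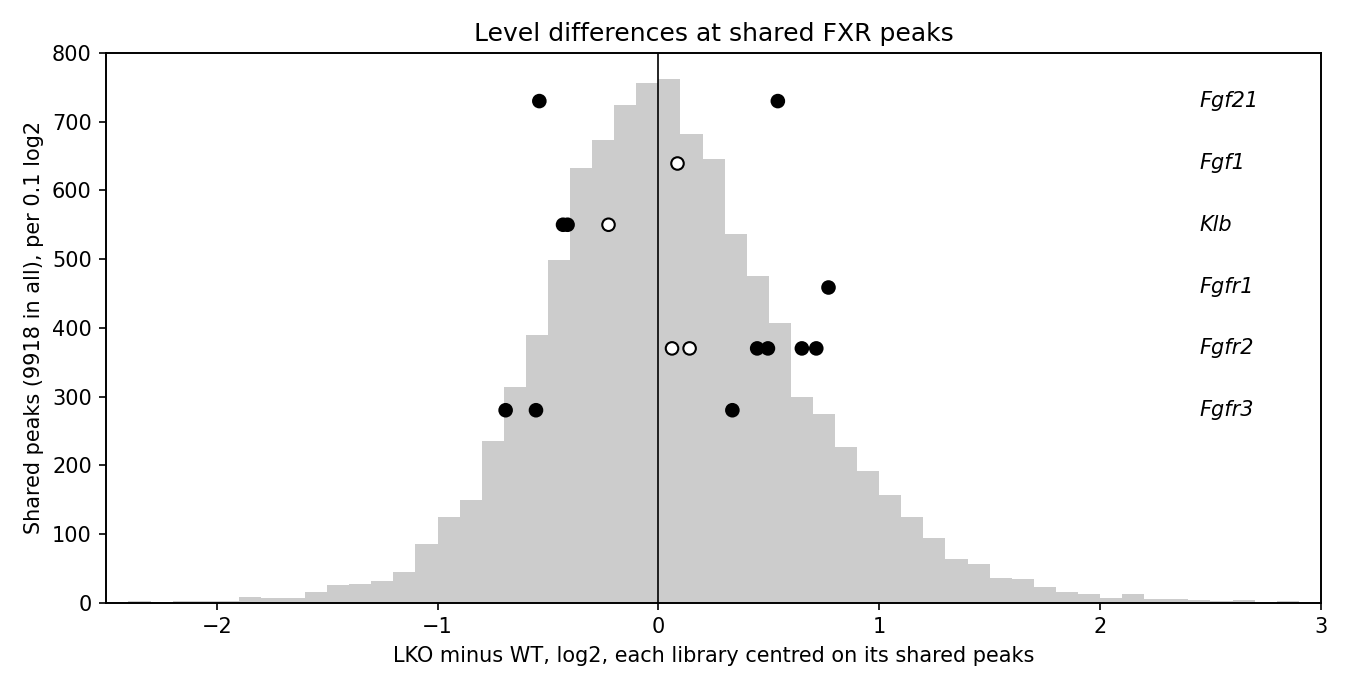
LKO minus WT in log2 units, each library centred on its shared peaks, for all 9918 shared peaks (grey bars, number per 0.1) and for the 16 member pairs (circles, 1 line per gene). Filled circles mark pairs in which both LKO libraries lay on one side of both WT libraries, 7 higher and 5 lower. No circle lies outside the 5th to 95th percentile of all shared peaks.

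Member peaks found in 1 table ranked below the shared ones at the median. The 5 WT-only member peaks had a median percentile of 49.9 and a maximum of 69.6, while the 16 shared ones had a median of 86.5 in WT. The LKO-only peaks reached at most the 18.3rd percentile. Log2 values of WT replicate 2 at member peaks correspond to an estimated 3.35 to 50.2 tags (median 14.7), beside 17.2 to 206 in WT replicate 1. The part of this difference in depth in the results was not tested.

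Peaks at other genes of FGF signalling are given by lists. FGF receptors pass their signal through adaptors such as FRS2 and GRB2 to the RAS and MAP kinase pathway, and SPRY, SPRED and DUSP proteins damp it. Of 15 adaptor and kinase genes, 13 had a WT peak and 9 an LKO peak, beside 34.4% and 26.3% of all protein-coding RefSeq genes, and 9 of 21 WT peaks were shared, near the 49.5% of all WT peaks. The strongest WT peaks were at Sos1 (log2 4.81 and 5.92), Grb2 (4.86 and 5.56), Mapk8 (5.04 and 5.19) and Cbl (3.99 and 5.07). Input tags in WT were 3 at Grb2, above the 95th percentile of input, 2 at Cbl and 0 at Sos1 and Mapk8. Shc1, Ptpn11 and Mapk9 were among those with peaks in WT only, Map2k1 had a peak in LKO only, and Braf had none. Frs2, Map2k2, Gab1 and Mapk3 had peaks in both tables, as did the first 4.

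Of 8 feedback inhibitor and decoy genes, 7 had a WT peak and 5 an LKO peak, beside the same 34.4% and 26.3% of all protein-coding genes. Of their WT peaks, 17 of 36 were shared, again near 49.5%. Spry4 had the strongest WT peak of this list, far upstream of its TSS (6.88 and 8.04 in WT, 6.76 and 6.83 in LKO), followed by Spred2 (6.36 and 6.55 in WT), Spred1 (5.36 and 6.32) and Dusp6 (5.13 and 6.26). The Spred2 peak had 4 input tags in WT, above the 95th percentile of input, and those at Spry4, Spred1 and Dusp6 had 0. Spry2 had peaks in both tables too. The decoy receptor gene Fgfrl1 and Il17rd had peaks in WT only, and Spry1 had none. The strongest adaptor peak, at Sos1, was at the 74.9th percentile in WT and the strongest inhibitor peak, at Spry4, at the 97.8th.

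Among 21 other ligand and co-receptor genes, 3 had a WT peak and 5 an LKO peak, and 16 had no peak in either table. Over all protein-coding RefSeq genes, 34.4% had a WT peak and 26.3% an LKO peak. Those with a WT peak were Kl, the gene of α-klotho (5.67 and 6.20), Fgf15 itself (5.27 and 5.20) and Fgf3 (2.67 and 4.63), and Fgf9 and Fgf12 had peaks in LKO only. The Kl peak had 5 input tags in WT, above the 95th percentile of input, and the Fgf3 peak had 0. The Fgf15 peak was in intron 2 at 2.0 kb and was shared, with LKO values of 5.87 and 5.26 and 0 input tags in both tables, although the hormone is made in the ileum and not in the liver. All 12 genes of the list of outputs and regulators had peaks in both tables, beside the same 34.4% and 26.3% of all protein-coding genes. The list holds the FXR target Nr0b2 and, like the other lists, was chosen with earlier results of these data known. The comparison with all genes is therefore no measure of enrichment. The 12 genes had 42 peaks in WT and 26 in LKO, of which 20 were shared, shares close to the 49.5% and 79.4% of all WT and LKO peaks. These 12 genes include Ppara and Creb3l3, which encode activators of Fgf21 transcription. Their strongest WT peaks had values of 6.36 and 6.90 (Ppara) and 6.13 and 6.79 (Creb3l3), beside 8.21 and 9.34 at Nr0b2, which encodes SHP, the repressor of bile acid synthesis genes. Ppargc1a, a coactivator gene, had 5.91 and 6.64. Input at these WT peaks was 6 tags at Ppara, above the 95th percentile of WT input. It was 1 tag at Creb3l3 and at Nr0b2, and 0 at Ppargc1a. The rest of the list were Etv4, Etv5 and Egr1, which are transcription factor genes induced by FGF signals, Fap, whose protease cleaves FGF21, the stress factor gene Atf4, the bile acid synthesis genes Cyp7a1 and Cyp8b1, and Nr1h4, the FXR gene.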

How the data were processed

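FXR ChIP and input libraries of liver were sequenced single-end. Per the labels, the authors aligned reads to mm10 with Bowtie 1.2, keeping unique alignments, and used HOMER 4.10 to call peaks on pooled ChIP libraries against input. Their filter then required an adjusted p-value below 0.05 and a log2 fold over input above 1. The deposited per-library log2 values, which the file headers name as tag counts, were taken as the authors' transform of tags, fitted within each table, and this reading is inferred from the values. The deposited peak score was used as a signal, in pooled tags per 10000000. The deposited adjusted p-value compares ChIP with input and is the authors' own. The authors' fold changes were not used.

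Peaks were overlapped (1 bp or more) and values centred in Python 3.11.15 with numpy 2.4.6, pandas 2.3.3 and matplotlib 3.10.9, with code tested on simulated data. Tags per library were estimated from log2 values and header totals, and input tags from the steps of the input values. SDs are over the transformed values of 2 libraries, and how far they reflect counting noise where tags are few was not tested. Nothing beyond the titles says that the libraries came from separate mice. By the rule for named genes, all peaks of the 7 genes and genes of the other lists with a peak are named, with values for up to 4 genes per list with the strongest WT peak. Some genes of the lists are not reported here by name. The members and lists were chosen with earlier results of these data known.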

Additional observations from a re-analysis of the deposited data

How the results depend on the processing

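Of shared member peaks, 16 in the main comparison, the count was 15 with 50% reciprocal overlap or with centres within 100 bp, 16 with gaps of up to 500 bp, 13 below the 95th percentile of input, and 16 by gene body with 10 kb around it, although the last counts other peaks. At or above the median strength in both tables it was 10 of 16 WT peaks. Some of these WT peaks lost their LKO partner, which stood below the median of the LKO table. They were the Klb peaks at 8.7 and 19.7 kb, the Fgfr3 peak at 16.9 kb and the Fgf1 promoter peak. The median LKO minus WT difference was 0.11, and it became -0.22 on the deposited scale and -0.36 with centring on all peaks of each table. Leaving out 1 replicate gave 0.03 to 0.23, and the pooled peak score, an alternative chosen after seeing the data, gave 0.17. Of the 12 differences with libraries separate after centring on shared peaks, 2 changed sign. Both did so with centring on all peaks: Fgfr3 at 0.5 kb to -0.14 and Fgfr2 at 43.6 kb to -0.029. The other 10 kept their sign with that centring but moved by at least their pooled SD. On the deposited scale 11 of the 12 moved by that much. The counts of IR1 and TTCNNNGAA did not change with the stricter settings tried, no alternative was run for the half-site and DR1, and median strength percentiles without 1 replicate ran from 72.2 to 73.2 in WT and from 71.6 to 74.3 in LKO.

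No result across genotypes came from a test, and no paired analysis was made. Nothing in the titles beyond the replicate number links a WT library to an LKO library, and the replicate numbers were not used. Peaks called on pooled libraries have no replicate spread, a table shows no signal under the authors' filter, and the shallow WT replicate 2 limits the WT values. Input depth, with 0 or 1 tag at most peaks, limits any statement on local background.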
